A study of Mus musculus with 73 samples.

Results

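A group of 107 autosomal genes, of 29557 in the deposited table (0.362%), was close to silent in wild-type mouse embryos and in embryos without Dnmt1, Rnf2 or Eed, and carried reads in embryos labelled G9a-Glp. The genes were picked on their levels. Reads over polymorphisms were scaled to CPM (counts per 1000000 such reads in a library). A gene entered if, in epiblast or in extraembryonic ectoderm (ExE), its median was 2 CPM or more in the G9a-Glp libraries, 0.5 CPM or less in wild-type BDF1xCAST, and 1 CPM or less in each of the 3 other knockouts of that tissue. The rule picked 49 genes in epiblast and 69 in ExE. It picked 11 in both, 38 in epiblast only and 58 in ExE only. Those levels are therefore described without a test, and tests are given only for measures the rule did not use. The name "on only without G9a-Glp" holds for group medians in the tissue that picked the gene: 15 of the 58 genes picked in ExE only had a median over 0.5 CPM in wild-type epiblast, and 22 of them had a median over 1 CPM in Dnmt1 epiblast.

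G9a and Glp, encoded by Ehmt2 and Ehmt1, form a methyltransferase that places 1 or 2 methyl groups on lysine 9 of histone H3, a mark found over repressed chromatin of the gene-rich part of the genome. The pair is known for repression of germline genes and of some genes of other lineages, and can act with or without DNA methylation. Dnmt1 copies DNA methylation at replication, Rnf2 is the ubiquitin ligase of Polycomb complex PRC1, and Eed is a core subunit of Polycomb complex PRC2, so each of the other knockouts removes another repressive layer. Epiblast is the tissue that forms the embryo, and ExE is the trophoblast tissue beside it that contributes to the placenta.

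All embryos were collected at E6.5, cut at the epiblast/ExE boundary and freed of visceral endoderm, per the labels' protocols, and each library came from 1 tissue of 1 embryo. The embryos labelled G9a-Glp, Dnmt1, Rnf2 and Eed and the wild-type BDF1xCAST embryos had a BDF1 mother (a C57BL/6 and DBA hybrid) and a CAST father, were made by sperm injection and were carried by CD-1 females. In the knockouts, Cas9 mRNA and several guides against different exons were injected into the zygote, so each embryo carries its own edits; G9a-Glp embryos received guides against Ehmt1 and Ehmt2 together. Where no cross is named, wild type stands for the BDF1xCAST libraries. The reciprocal wild-type cross, CASTxBDF1, had a CAST mother and came from natural mating, so its direction and its mode of fertilisation cannot be told apart. G9a-Glp had 6 epiblast libraries (3 female, 3 male) and 8 ExE libraries (5 female, 3 male). Wild-type BDF1xCAST had 7 and 7 libraries, CASTxBDF1 4 and 4, Dnmt1 3 and 3, Rnf2 6 and 5, and Eed 9 and 10.

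Reads per library ranged from 1637260 to 2860524 in G9a-Glp epiblast and from 1829541 to 3637331 in G9a-Glp ExE, against 1311863 to 3028267 and 2685835 to 3053690 in wild-type BDF1xCAST. The targeted gene Ehmt1 was at 4.14, 6.93, 17.1 and 19.0 CPM in G9a-Glp epiblast embryos 1, 3, 5 and 4, but at 29.3 and 50.5 CPM in embryos 2 and 7, against 14.5 to 39.8 CPM in wild-type epiblast. Embryos 1 and 3 thus lay below every wild-type library, 2 within the upper part of the wild type and 7 above it. Embryos 4 and 5 lay above only wild-type embryo 8 (14.5 CPM), a library that stood apart, as given below. They lay below the other wild-type libraries, at 21.4 to 39.8 CPM. A change over the group was not detected (log2 change -0.62, adjusted p = 0.259, edgeR quasi-likelihood test). Ehmt2 was at 1.13 to 5.50 CPM in G9a-Glp epiblast and at 0.396 to 6.27 CPM in the wild type, too low for the filter, so neither target's RNA marks the epiblast libraries as a group, and G9a-Glp stands throughout for libraries labelled so. Allele calls and the rule are also given without embryos 2 and 7, whose Ehmt1 lay above the wild-type median. In ExE, Ehmt2 was at 1.65 to 7.15 CPM in G9a-Glp and 4.33 to 23.3 CPM in the wild type (log2 change -2.04, adjusted p = 0.000795, edgeR quasi-likelihood test), and Ehmt1 at 4.40 to 26.1 against 15.3 to 40.6 CPM (log2 change -1.04, adjusted p = 0.0211). Wild-type epiblast embryo 8 stood apart from the other wild-type libraries. It was the shallowest, with 1311863 reads, so that 1 read was worth 0.762 CPM; its summed visceral endoderm markers were at 1093 CPM against 113 CPM in the median wild-type library, and 21 of the 49 epiblast genes reached 2 CPM in it. Without it the rule picked 48 genes in epiblast, 47 of them among the 49.

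In each G9a-Glp epiblast library 27 to 43 of the 49 epiblast genes reached 2 CPM (median 34.5), and in each G9a-Glp ExE library 48 to 60 of the 69 ExE genes did (median 53.0). Most of the genes were seen in most embryos: 36 of 49 and 51 of 69 had a read in every G9a-Glp library. In the wild type, 0 to 2 of the 49 reached 2 CPM in the epiblast libraries other than embryo 8, and 0 to 4 of the 69 in ExE. Dnmt1 libraries had 1 to 5 and 0 to 2 of these genes at that level, Rnf2 libraries 0 to 6 and 0 to 2, and Eed libraries 0 to 7 and 1 to 7. Leaving out G9a-Glp epiblast embryos 2 and 7, which had 37 and 32 of the 49 genes at 2 CPM, the rule picked 47 genes, 35 of them among the 49. Since tissues were sequenced in bulk, fewer expressing cells and less RNA per cell cannot be told apart.

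**Figure D1:**
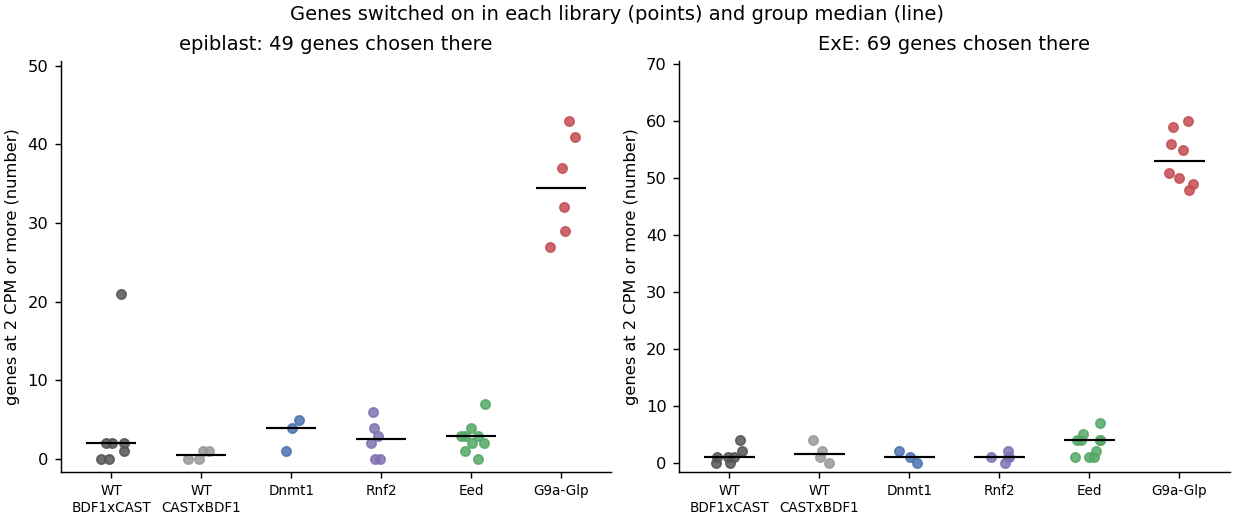
Number of picked genes at 2 CPM or more (vertical axis) in each library (point), by group (horizontal axis), for the 49 genes picked in epiblast and the 69 picked in ExE. The G9a-Glp libraries sit between 27 and 43 in epiblast and between 48 and 60 in ExE; wild-type epiblast embryo 8, at 21, stands above every other library that is not G9a-Glp.

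Levels were low. The medians in G9a-Glp ran from 2.04 to 15.0 CPM in epiblast (middle gene 2.92) and from 2.03 to 24.8 CPM in ExE (middle gene 3.27), and 27 of 49 and 25 of 69 lay under 3 CPM. The number of genes whose G9a-Glp libraries all lay above all 7 wild-type libraries was 13 of 49 in epiblast, where 3.79% of all autosomal genes did so, and 37 of 69 in ExE, where 0.968% did; the rule used this contrast, so nothing is read from the difference. In the reciprocal CASTxBDF1 cross, which the rule did not use, 46 of 49 (93.9%) and 66 of 69 (95.7%) were at 0.5 CPM or less. Among all autosomal genes at that level in BDF1xCAST the shares were 94.6% and 95.8%, so the picked genes were about as silent in the other cross as any silent gene. The exceptions were Wfdc15a, Gm33214 and Mybpc2 in epiblast and F830045P16Rik, LOC666331 and Gm32184 in ExE.

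The 11 genes picked in both tissues were 8 genes for long noncoding RNA (lncRNA) and 3 coding genes. The coding ones were Cd3e, a signalling chain of the T-cell receptor, Samd7, known from photoreceptors, and Wdr20rt, a retrogene that encodes a WD-repeat protein. Cd3e had no read in any of the 14 wild-type BDF1xCAST libraries. In G9a-Glp epiblast it was at 0.855, 1.63, 2.44, 6.02, 6.29 and 6.58 CPM, lowest in embryo 7, and in ExE it ran from 0.0 to 6.28 CPM with a median of 2.16. Against the level that 3 reads over the 7 wild-type libraries would give, this was at least 23.6-fold higher in epiblast and at least 19.0-fold higher in ExE, over pooled reads. The ranges did not overlap in epiblast, while 1 ExE library, embryo 7, had no read of Cd3e.

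Wdr20rt differed between the tissues. It was at 9.10 to 30.8 CPM in G9a-Glp ExE (median 18.9), with no read in 7 wild-type ExE libraries, which made it at least 139.8-fold higher. In G9a-Glp epiblast it ran only from 0.611 to 4.14 CPM (median 2.66), and 2 of the 7 wild-type libraries had reads, up to 1.52 CPM. The lncRNA gene Gm16499 behaved alike: 8.87 to 41.9 CPM in ExE (median 22.5), with no wild-type read and a fold of at least 165, against 1.22 to 10.2 CPM in epiblast (median 5.43). 4933404K13Rik, another lncRNA gene, ran from 4.12 to 22.1 CPM in ExE (median 10.3, no wild-type read, at least 77.6-fold higher, but up to 3.76 CPM in CASTxBDF1) and from 0.0 to 6.12 CPM in epiblast (median 2.39), where embryos without a read were present. The lncRNA gene 1700019E08Rik was as high in 1 tissue as in the other, at 8.28 to 22.0 CPM in epiblast (median 13.2) and 6.87 to 21.3 CPM in ExE (median 11.2), with 1 wild-type library of 14 holding a read.

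The other genes of both tissues were lower. Gm39840 had medians of 2.21 CPM in G9a-Glp epiblast (0.408 to 4.89) and 6.18 CPM in ExE (1.10 to 12.7), and overlapped the wild type in both tissues, where it reached 3.81 and 1.86 CPM. Gm19510 had medians of 2.65 CPM (1.50 to 8.98) and 3.43 CPM (1.85 to 10.4). Samd7 had medians of 3.27 CPM (1.05 to 6.11) and 2.34 CPM (0.927 to 9.29), with 7.62 CPM in wild-type epiblast embryo 8, above every G9a-Glp epiblast library. Medians of the 3 remaining lncRNA genes, Grip1os2, 9430018G01Rik and LOC108167464, were 3.41, 2.73 and 2.29 CPM in epiblast and 2.37, 2.40 and 2.49 CPM in ExE. Grip1os2 had no read in 1 epiblast library, embryo 7, and 1 ExE library, and LOC108167464 none in 1 epiblast library.

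The rule fixed no direction between the tissues for these 11 genes, so ExE was tested against epiblast within G9a-Glp (edgeR quasi-likelihood test, Benjamini-Hochberg adjustment over 9513 genes, two-sided). Of the 11, 7 passed the filter on low counts, and 4 were called higher in ExE: Wdr20rt (log2 difference 3.08), 4933404K13Rik (2.39), Gm16499 (2.14) and Gm39840 (1.44, adjusted p = 0.0285). None was called lower. Over all genes tested, 26.4% were higher in ExE and 27.8% lower. With the embryo as a block over the 5 embryos that had both tissues, Gm39840 lost its call (adjusted p = 0.0759), and the others kept theirs. For 1700019E08Rik (-0.16), Cd3e (-0.45) and Gm19510 (0.45) a difference was not detected.

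**Figure D2:**
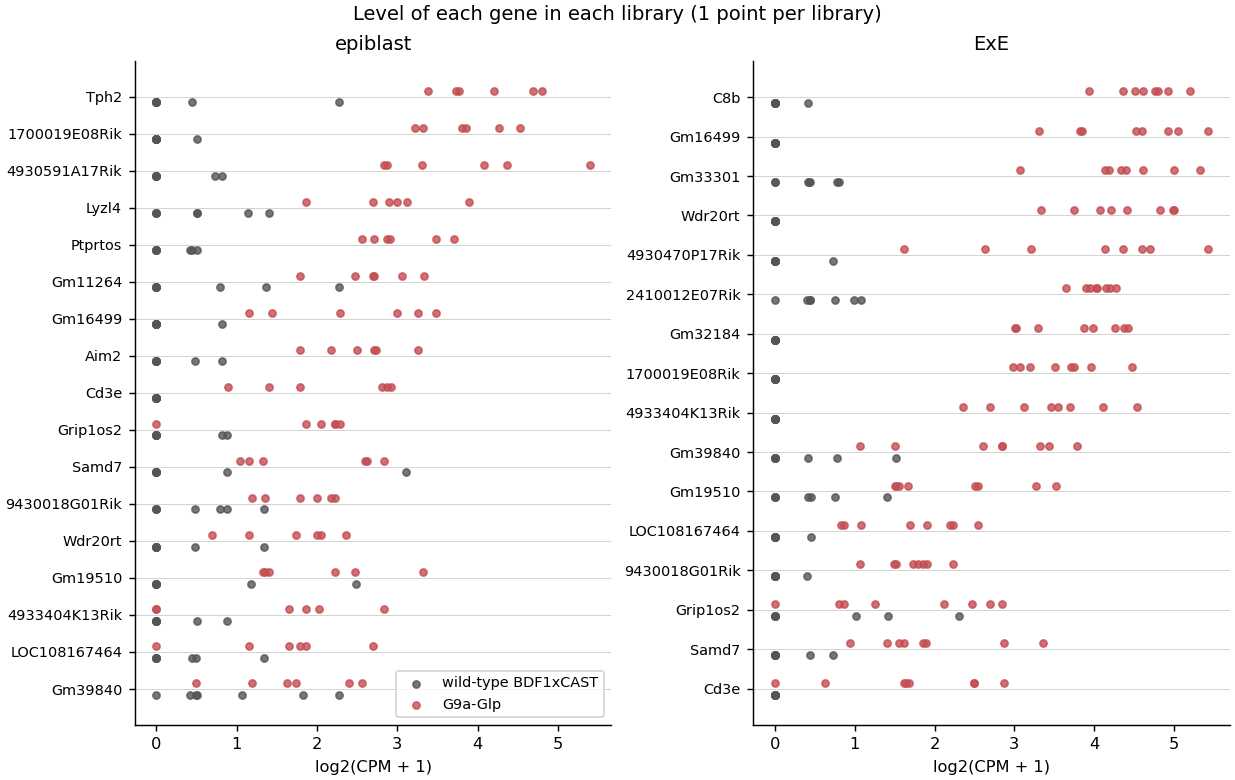
Level of the named genes as log2(CPM + 1) (horizontal axis) in each G9a-Glp and wild-type BDF1xCAST library (points) of epiblast and ExE, for the genes picked in both tissues and the 8 highest of each tissue. Wdr20rt and Gm16499 lie higher in G9a-Glp ExE than in G9a-Glp epiblast, and 1700019E08Rik lies at a like level in both.

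In epiblast, the highest gene was Tph2, which encodes the enzyme that starts serotonin synthesis in the brain. It was at 24.8, 12.2, 12.6, 17.4, 26.9 and 9.41 CPM in G9a-Glp embryos 1, 2, 3, 4, 5 and 7, against no read in 5 of the 7 wild-type libraries and at most 3.81 CPM, in embryo 8. All G9a-Glp libraries lay above all wild-type libraries. In ExE the same gene stayed between 0.0 and 1.64 CPM in G9a-Glp (median 0.152). After it and 1700019E08Rik came 4930591A17Rik at 6.11 to 41.0 CPM (median 12.4), Lyzl4, a lysozyme-like gene of sperm, at 2.63 to 13.9 CPM (median 6.69), and Ptprtos, an lncRNA gene within Ptprt, at 4.89 to 12.0 CPM (median 6.41). Gm11264 ran from 2.45 to 9.03 CPM (median 5.53) and overlapped wild-type embryo 8, at 3.81 CPM, and Aim2, a sensor of DNA in the cytosol, ran from 2.44 to 8.56 CPM (median 5.10) and did not overlap the wild type, which stayed at 0.762 CPM or less.

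The remaining epiblast genes had medians under 5 CPM. Those with known roles included Myh11, the smooth muscle myosin heavy chain (median 4.71 CPM), Trpv1, the heat and capsaicin channel of sensory neurons (3.18), Asgr2, a receptor of hepatocytes (3.10), Ptprq, a phosphatase of the inner ear (2.93), Zp2, a protein of the egg coat (2.92), and Mybpc2, of fast skeletal muscle (2.12). Trpv1 had no wild-type epiblast read and was at least 20.1-fold higher in G9a-Glp epiblast over pooled reads. The gene 4933425L06Rik likewise had none and was at least 25.1-fold higher. Of the 49 epiblast genes, 3 had no read in any wild-type epiblast library, the third being Cd3e, and 24 reached 2 CPM in at least 1 wild-type library.

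In ExE, the highest gene was C8b, which encodes a subunit of the membrane attack complex of complement. Its G9a-Glp libraries ran from 14.3 to 35.5 CPM (median 24.8), and 1 of 7 wild-type libraries held a single read. Gm33301, an lncRNA gene, ran from 7.39 to 39.2 CPM (median 19.6, wild type up to 0.745). The lncRNA gene 2410012E07Rik was the steadiest, from 11.5 to 18.3 CPM in 8 libraries (median 15.3, wild type up to 1.12). 4930470P17Rik varied most among the leading genes, from 2.06 to 41.8 CPM (median 18.1), and its G9a-Glp libraries still lay above the wild type, at 0.655 CPM or less. Gm32184 was at 7.01 to 20.5 CPM (median 14.2) with no read in BDF1xCAST, at least 93.5-fold higher, but had 2 reads in each of 3 of the 4 CASTxBDF1 ExE libraries (up to 0.566 CPM). Gm16499, Wdr20rt and 1700019E08Rik complete the 8 highest genes of ExE.

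Among the other ExE genes, Hc (complement component C5, median 9.28 CPM) and Serpind1 (heparin cofactor II, 2.54) are, like C8b, known as liver genes whose products circulate in blood. Hc was at least 72.3-fold higher over pooled reads, Cdh26, a cadherin, at least 60.5-fold, and Ceacam20 at least 50.7-fold, each with no wild-type read. Mapk10, the neuronal JNK kinase, had a median of 6.33 CPM, Ina, a neuronal intermediate filament, 4.07, Pax8, a transcription factor of thyroid and kidney, 3.75, Cftr, the chloride channel, 3.21, and Inpp5d, a phosphatase of blood cells, 3.08. Gtsf1, of the piRNA pathway, had 2.26 CPM and Tex21, of testis, 2.28. Of the 69 genes, 16 had no read in the 7 BDF1xCAST ExE libraries, 12 had none in the 11 ExE libraries of both wild-type crosses, and 8 reached 2 CPM in at least 1 BDF1xCAST library.

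**Figure D3:**
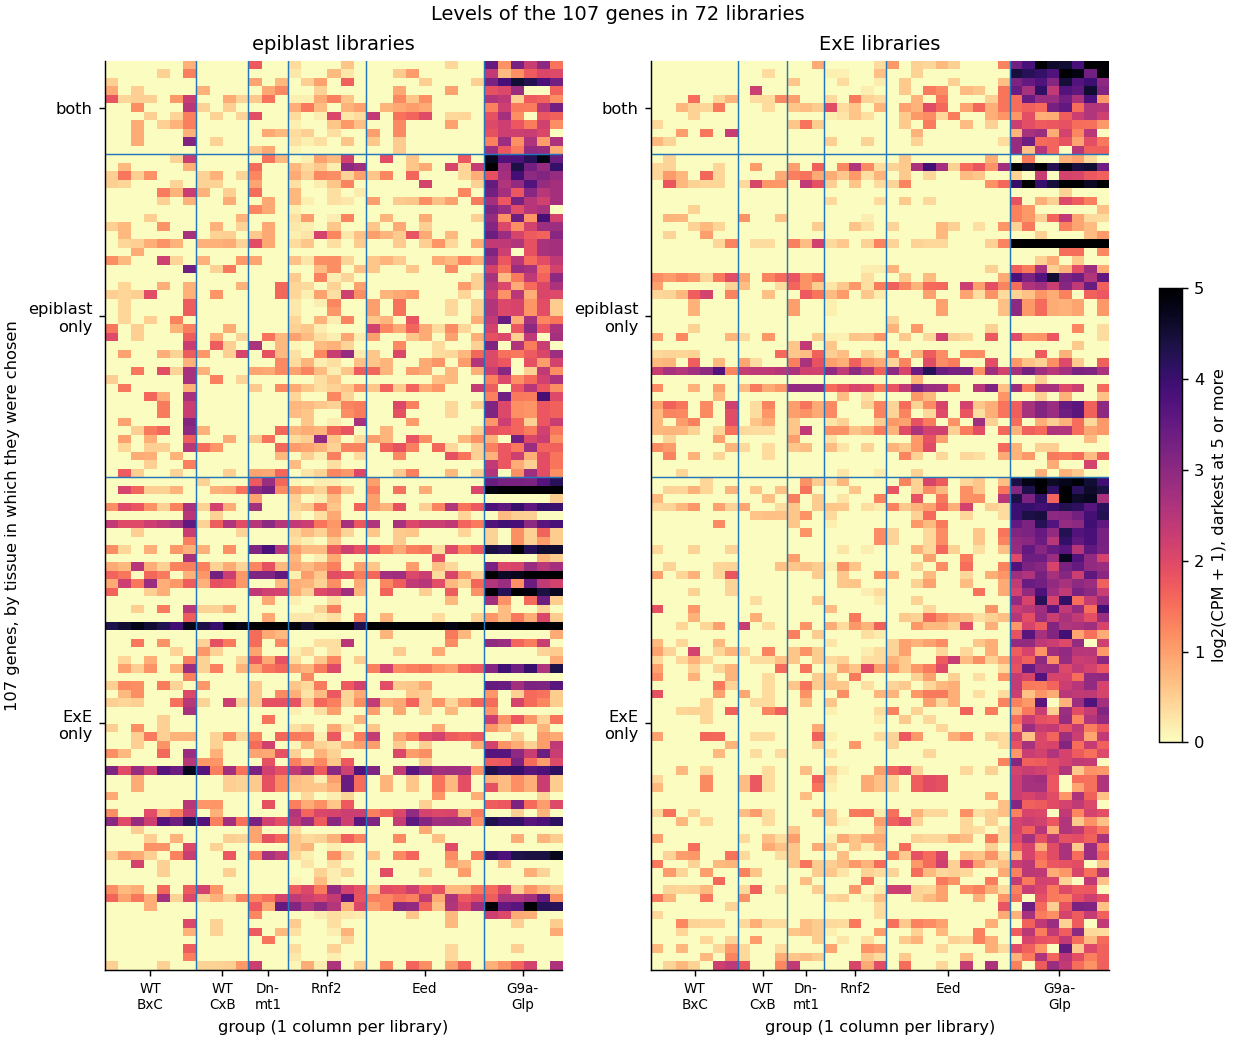
Level as log2(CPM + 1) (colour, darkest at 5 or more) of each of the 107 picked genes (rows, set apart as picked in both tissues, in epiblast only and in ExE only) in each of 72 libraries (columns, by group). Within the tissue that picked a gene the G9a-Glp columns are mostly the darker ones, since the rule set their median against the others, and wild-type epiblast embryo 8 has 21 of the 49 epiblast genes at 2 CPM or more; in the other tissue some genes are also on in the wild type or in Dnmt1.

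Markers of other cell types were read beside these levels. Summed over 10 visceral endoderm genes, G9a-Glp epiblast was at 152 to 652 CPM (median 339) and wild-type epiblast at 75.5 to 1093 CPM (median 113), while ExE was at 264 to 488 CPM in G9a-Glp and 220 to 526.2 CPM in the wild type. The sum was thus higher in the median G9a-Glp epiblast and about level in ExE. CASTxBDF1 epiblast embryo 2 reached 3919 CPM of these markers, with 1 of the 49 epiblast genes at 2 CPM. Summed over 5 genes of maternal decidua, G9a-Glp epiblast was at 11.6 to 35.4 CPM and the wild type at 2.77 to 15.2 CPM. In ExE the sums were 1.37 to 7.73 against 3.22 to 10.5 CPM. Prl8a2 and Dio3 were at 0 in every G9a-Glp library, so the G9a-Glp sums came from Dcn, Col1a1 and Cryab. Prl8a2 was also at 0 in every wild-type library. Over 4 genes of mesoderm and blood, G9a-Glp epiblast was at 6.41 to 106.9 CPM (median 42.9) and the wild type at 8.92 to 628 CPM (median 222). Over 5 primordial germ cell genes, G9a-Glp epiblast was at 21.3 to 44.8 CPM (median 34.3) against 6.06 to 32.8 CPM (median 14.7). Prdm14 was at 0 in every G9a-Glp epiblast library, so that sum came from Prdm1, Dppa3, Nanos3 and Tfap2c. The part of these markers in the epiblast levels was not tested. None of the picked genes was on a marker list, but the rule takes only genes near silent in the wild type, so nothing is read from this. The tissue labels were borne out: summed epiblast markers were at 4082 to 6553 CPM in G9a-Glp epiblast and 753 to 1190 CPM in G9a-Glp ExE, and ExE markers at 41.5 to 145 and 594 to 1023 CPM.

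Some genes picked in 1 tissue only were also on in the other. Of the 58 genes picked in ExE only, 21 had a median of 2 CPM or more in G9a-Glp epiblast, where they missed the rule: 13 of the 21 were over 0.5 CPM in wild-type epiblast and 15 over 1 CPM in Dnmt1 epiblast. Of the 38 picked in epiblast only, 10 were at 2 CPM or more in G9a-Glp ExE, and all 10 were over 1 CPM in Dnmt1 ExE. Wfdc15a, on a list of germline genes, shows the second case, with 2.71 to 5.56 CPM in G9a-Glp epiblast, 30.7 to 119 CPM in G9a-Glp ExE (median 44.7) and a median of 1.53 CPM in Dnmt1 ExE. C8b shows the first, with 8.13 to 17.5 CPM in G9a-Glp epiblast (median 9.17), no read in wild-type epiblast (at least 60.7-fold higher over pooled reads) and 2.01 to 6.13 CPM in the 3 Dnmt1 epiblast libraries. Other genes were off in the second tissue. The median in G9a-Glp epiblast was 0 for 20 of the 58 (34.5%), and that in G9a-Glp ExE for 15 of the 38 (39.5%). No share over all genes was set beside these counts.

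G9a-Glp was tested against wild-type BDF1xCAST in the tissue where a gene had not been picked. A gene can pass the filter on low counts through its G9a-Glp libraries alone, so the calls are given for single genes and not counted as support. In epiblast, where 19.8% of 9251 genes tested were higher in G9a-Glp and 15% lower, these included Tgtp1, an interferon-induced GTPase (log2 change 6.86), 1700019A02Rik (5.62), Lrriq4 (4.99), Gm33301 (4.85) and Tspan8 (4.83). Tgtp1 was at 10.4 to 36.4 CPM in G9a-Glp epiblast and up to 0.807 CPM in the wild type, with medians of 2.34, 4.85 and 3.11 CPM in Dnmt1, Rnf2 and Eed. Ina changed least among those called (log2 change 0.82), from a median of 22.1 to 37.6 CPM, since it is on in wild-type epiblast, and a change was not detected for LOC108168143 (0.67) and Gm34059 (0.84), which overlap each other. In ExE, where 8.53% of 8931 genes were higher and 6.24% lower, the genes called were Wfdc15a (7.78), 4930591A17Rik (6.96), Ptprtos (5.40) and Trpv1 (2.87), and a change of Gm30762 (0.11) was not detected.

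The limits on the other knockouts removed most candidates. With only the G9a-Glp and wild-type limits, 311 genes qualified in epiblast and 169 in ExE. Of the 311, 200 (64.3%) were over 1 CPM in Dnmt1, 208 (66.9%) in Rnf2 and 198 (63.7%) in Eed, and 136 (43.7%) in all 3; of the 169, the numbers were 66 (39.1%), 57 (33.7%), 74 (43.8%) and 37 (21.9%). In all, 262 of the 311 (84.2%) and 100 of the 169 (59.2%) were over 1 CPM in at least 1 other knockout. Used on another knockout in place of G9a-Glp, the same rule picked 55 genes in epiblast and 19 in ExE for Dnmt1, 49 and 8 for Rnf2, and 15 and 136 for Eed. Single libraries of the other knockouts did reach 2 CPM: 10 of the 49 epiblast genes did so in at least 1 Dnmt1 library, 12 in Rnf2 and 17 in Eed, and 3, 4 and 19 of the 69 ExE genes.

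By RefSeq class, 50 of the 106 genes with a match were lncRNA genes (47.2%), 54 coding (50.9%) and 2 transcribed pseudogenes, Gm5779 and 9030619P08Rik. Over all autosomal genes the shares were 34.1% lncRNA and 63.3% coding. The silent genes of the wild type had a like mix: 51.4% of genes at 0.5 CPM or less were lncRNA genes in epiblast and 50.6% in ExE, beside 24 of 49 (49.0%) and 34 of 68 (50.0%) of the picked ones. The genes that were on in G9a-Glp but also in another knockout differed in class, with 37 of 258 (14.3%) and 17 of 100 (17.0%) lncRNA genes and 82.6% and 80.0% coding. These shares are descriptions of lists chosen on levels and were not tested.

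Few of the picked genes had a CpG-rich promoter. RefSeq held a promoter (250 bases before to 50 after the start, GRCm38.p6) for 86 of the 107. The ratio of observed to expected CpG was 0.6 or more in 6 of the 86 (6.98%), namely Gna12, Cftr, Gm32184, Acot12, Tmem63b and Ina, and in 37.1% of 25748 autosomal promoters. Among silent genes of the wild type it was 16.8% in epiblast and 17.4% in ExE, and among genes on in G9a-Glp and in another knockout 102 of 196 (52.0%) and 26 of 73 (35.6%). The E-box CACGTG, searched on both strands, was in 4 of 86 promoters (4.65%; Zim2, Asgr2, LOC666331 and LOC102633000) beside 7.23% of all, and GCGGGA, the E2F6 motif, in 12 (14.0%) beside 20.3%. Among silent genes of the wild type the shares were 5.67% and 5.7% for the E-box and 11.5% and 12.0% for GCGGGA, in epiblast and ExE, beside 5.13% and 3.64%, and 12.8% and 14.5%, of the picked genes. The 250 bases before the start are printed for 5 genes the results turn on, 5′ to 3′ on the gene's strand, from RefSeq on GRCm38.p6, with every CpG in capitals. They hold 33 CpG for Gm32184, 11 for Gm16499, 7 for Tph2, 4 for 4933404K13Rik and 4 for C8b. Over the whole promoter the ratio was 0.943 for Gm32184, and 0.488, 0.542, 0.487 and 0.317 for the other genes in that order. The median ratio was 0.281 over the picked promoters and 0.395 over all. Only C8b of the printed genes lay below 0.395. Silent genes of the wild type had a median of 0.245 in epiblast and 0.252 in ExE, beside 0.277 and 0.281 of the picked genes. By the median, the picked promoters were thus not poorer in CpG than those of silent genes. The positions are chr6:53844649-53844898 (plus strand) for Gm16499, chr10:43825657-43825906 (plus) for 4933404K13Rik, chr10:115185023-115185272 (minus) for Tph2, chr4:104766067-104766316 (plus) for C8b and chr13:41606077-41606326 (minus) for Gm32184. The start is that of RefSeq, and for some picked genes, Gm32184 among them, it lies outside the gene body of the deposited table.
Gm16499: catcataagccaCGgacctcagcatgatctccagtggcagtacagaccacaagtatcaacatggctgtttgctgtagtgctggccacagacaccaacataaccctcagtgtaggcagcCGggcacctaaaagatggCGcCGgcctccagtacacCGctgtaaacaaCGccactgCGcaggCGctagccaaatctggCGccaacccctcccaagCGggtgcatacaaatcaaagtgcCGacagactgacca
4933404K13Rik: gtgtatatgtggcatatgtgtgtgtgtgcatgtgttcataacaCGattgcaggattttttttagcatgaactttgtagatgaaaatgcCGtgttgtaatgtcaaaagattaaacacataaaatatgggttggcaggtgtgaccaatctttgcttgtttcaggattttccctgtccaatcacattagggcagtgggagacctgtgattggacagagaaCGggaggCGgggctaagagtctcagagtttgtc
Tph2: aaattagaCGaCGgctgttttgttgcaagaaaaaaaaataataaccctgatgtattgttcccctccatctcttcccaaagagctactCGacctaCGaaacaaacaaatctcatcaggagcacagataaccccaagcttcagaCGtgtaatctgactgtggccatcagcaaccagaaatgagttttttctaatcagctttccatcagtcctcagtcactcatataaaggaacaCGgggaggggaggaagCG
C8b: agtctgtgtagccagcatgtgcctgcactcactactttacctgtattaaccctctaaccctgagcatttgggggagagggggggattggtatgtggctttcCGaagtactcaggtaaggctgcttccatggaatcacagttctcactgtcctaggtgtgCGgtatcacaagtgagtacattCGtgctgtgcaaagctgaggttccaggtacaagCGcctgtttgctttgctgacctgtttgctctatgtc
Gm32184: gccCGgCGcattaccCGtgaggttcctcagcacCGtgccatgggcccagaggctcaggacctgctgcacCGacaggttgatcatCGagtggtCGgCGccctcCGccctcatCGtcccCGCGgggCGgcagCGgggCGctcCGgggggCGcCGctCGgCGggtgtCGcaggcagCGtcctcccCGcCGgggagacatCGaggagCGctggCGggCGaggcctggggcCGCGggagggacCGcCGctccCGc

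The picked genes were scattered. They lay on 18 of the 19 autosomes, most on chromosome 2 (15 genes) and chromosome 10 (11), and none on chromosome 18. Joined where their bodies overlapped, the 107 genes formed 100 loci. The overlapping pairs were Inpp5d with Gm33470, Hc with Gm39794, Gm14637 with 4930470P17Rik, Lrrc31 with LOC108168861, Lmcd1 with 5031434C07Rik, Ptprq with Gm36177, and Gm34059 with LOC108168143. Since no source used here records counting by strand, reads of such a pair cannot be told apart, and Gm34059 and LOC108168143 held the same 176 BDF1 and 45 CAST reads in epiblast. In all, 48 of the 107 overlapped some other gene. Of the 107, 12 (11.2%) lay within 500 kb of a picked gene of another locus. A single cluster of separate loci lay within 100 kb, on chromosome 3, where Lrriq4, Lrrc31 with LOC108168861, and Samd7 followed each other at gaps of 6.12 and 46.4 kb. Lrriq4 and Lrrc31 were picked in ExE only and Samd7 in both tissues.

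Genes near the picked ones were read from the fit of G9a-Glp against the wild type. Within 50 kb of an epiblast gene, and apart from it, 33 genes that were not picked passed the filter, of which 12 (36.4%) were called higher and 3 lower, beside 19.8% and 15% of all genes. Of those 12, 4 flank Mybpc2, namely Josd2, Emc10, Pold1 and Nr1h2. In ExE, 5 of 35 (14.3%) were higher and 0 lower, beside 8.53% and 6.24%. Genes that overlap a picked gene may share its reads; 2 of 5 were higher in epiblast and 4 of 7 in ExE. The largest changes were those of Gm32885, 49.6 kb from Gm32733, which rose from a median of 69.8 to 2422 CPM in epiblast (log2 change 5.35), Gm31579, which overlaps Gm31631 (ExE, 1.43 to 19.15 CPM, 4.27), Ptprt, host of Ptprtos (epiblast, 0.791 to 6.99 CPM, 3.28), the histone gene Hist1h2ab, 26.9 kb from Trim38 (ExE, 5.92 to 68.3 CPM, 3.07), and Gm30504, which overlaps Gm6329 (ExE, 1.97 to 6.32 CPM, 1.85).

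Allele use was independent of the rule, which had summed both alleles. Reads of the BDF1 and CAST alleles were compared within the G9a-Glp libraries of a tissue against the genome-wide BDF1 share, 57.1% in epiblast and 56.8% in ExE, for genes with 10 or more reads in 3 or more libraries (edgeR quasi-likelihood test, Benjamini-Hochberg adjustment over all genes tested, two-sided). All G9a-Glp embryos had a BDF1 mother, so strain and parent of origin cannot be told apart. In epiblast 24 of 40 tested genes were called (60.0%, at 23 loci), 14 toward BDF1 and 10 toward CAST; over all genes 34.2% were called, 11.9% toward BDF1 and 22.2% toward CAST. In ExE 34 of 55 were called (61.8%, at 32 loci), 18 toward BDF1 and 16 toward CAST, against 41.8%, 14.8% and 27% of all genes. Without epiblast embryos 2 and 7, 16 genes were called in epiblast.

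Several picked genes came almost wholly from 1 allele. A mean share of 90% or more from 1 allele was found for 10 of 40 in epiblast (25.0%; 7 BDF1, 3 CAST) and 14 of 55 in ExE (25.5%; 10 BDF1, 4 CAST), beside 3.02% of 9507 and 3.25% of 9394 genes. Among genes under 50 mean reads it was 10 of 34 (29.4%) beside 4.25% in epiblast, and 14 of 48 (29.2%) beside 4.57% in ExE. The median distance from the genome-wide share was 24.2 percentage points in epiblast and 27.9 in ExE, beside 6.65 and 6.63 over all genes. These numbers count genes picked in either tissue. Of the genes picked in the tissue tested, 9 of 21 (42.9%) in epiblast and 13 of 46 (28.3%) in ExE were at 90% or more. Genes on in G9a-Glp and also in another knockout of that tissue lay between these and all genes, at 12 of 109 (11.0%) and 9 of 57 (15.8%). That last set can hold genes picked in the other tissue. These shares were set side by side and not tested against each other. The picked genes counted in ExE include Cd3e, at 91.3% BDF1 over the 3 libraries with 10 or more reads. Over all libraries it had 47 BDF1 and 13 CAST reads, and a bias was not detected (adjusted p = 0.133, edgeR quasi-likelihood test).

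Tph2 in epiblast had 261 reads from BDF1 and 0 from CAST over 6 libraries (a count of 0 of 261 allows a CAST share of up to 1.15%; adjusted p = 2.87e-07). All 6 libraries were at 100% BDF1. The lncRNA gene 2410012E07Rik gave 197 BDF1 and 0 CAST reads in epiblast (up to 1.52%) and 321 to 5 in ExE, a BDF1 share of 98.5% ± 2.57 (SD, n = 8; adjusted p = 3.41e-09). Trpv1 was the reverse, with 0 BDF1 and 52 CAST reads in epiblast (up to 5.77%) and 9 to 221 in ExE, 4.22% ± 5.35 BDF1 (SD, n = 8). In epiblast its libraries held only 1 to 16 reads each. Gm32184 in ExE had 0 BDF1 and 295 CAST reads in 8 libraries (up to 1.02%, adjusted p = 2.55e-08, edgeR quasi-likelihood test). Its promoter was the CpG-rich one of those printed, and a link between CpG content and allele use was not tested. 4933404K13Rik, picked in both tissues, came 94.8% ± 4.99 from BDF1 in ExE (SD, n = 8; 233 to 12 reads). Such intervals and limits cover counting error only, since reads without molecular identifiers are not independent molecules.

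Further genes of nearly 1 allele had fewer reads. On the BDF1 side in ExE were Mapk10 (124 reads to 1), LOC108167324 (141 to 1), Gm31146 (110 to 0), Gm19510 (100 to 0), the pseudogene 9030619P08Rik (76 to 0), Grip1os2 (57 to 0) and Gm5134 (57 to 6), with zeros allowing up to 2.73%, 3.00%, 3.95% and 5.26% in that order. On the CAST side there were Teddm2 (3 to 82) and Scara3 (3 to 50). Grip1os2, Teddm2 and Scara3 each had 10 or more reads in only 3 ExE libraries. In epiblast, Gm11264 (83 to 1), 4931428L18Rik (92 to 0, up to 3.26%), Wfdc15a (64 to 1), Zp2 (49 to 2) and Cd3e (54 to 7) lay on the BDF1 side. Myh11 (1 to 67) and Gm32587 (0 to 48, up to 6.25%) lay on the CAST side. Of these, 4931428L18Rik, Zp2, Cd3e, Myh11 and Gm32587 had 10 or more reads in only 3 epiblast libraries, as had Trpv1. Both alleles were used by Wdr20rt in ExE (234 BDF1 and 207 CAST reads), Gm16499 (340 and 180) and 1700019E08Rik (155 and 92 in ExE, 129 and 74 in epiblast), for which no bias was detected (adjusted p = 0.694, 0.262, 0.418 and 0.307). The genes of both tissues were thus not alike in allele use.

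The other calls were partial biases. Toward BDF1 in ExE were Wfdc15a (76.7% ± 6.56 BDF1, SD, n = 8), Gm30762 (84.7% ± 9.05, n = 8), 4930591A17Rik (75.5% ± 16.8, n = 8), Gm39840 (86.7% ± 16.2, n = 6), Asgr2 (85.7% ± 10.9, n = 3), LOC108167447 (88.1% ± 13.6, n = 3), and, close to the threshold, Gm39794, Hc and Ceacam20 (adjusted p = 0.0165, 0.0466 and 0.0361). The last 3 lost their calls when single libraries were left out. Toward CAST in ExE, the BDF1 share was 17.8% ± 8.55 for C8b (n = 8), 11.2% ± 14.0 for Gm34739 (n = 7), 28.2% ± 14.2 for Cdh26 (n = 7), 33.6% ± 17.2 for 4930470P17Rik (n = 7) and 23.3% ± 14.0 for Lmcd1 (n = 6), which shares its reads with 5031434C07Rik (22.2% ± 15.0). It was 21.6% ± 13.5 for 1700108F19Rik, and lay at 30.1% or less for Fam155a, F830045P16Rik, Abca16 and LOC102634683, on 3 or 4 libraries each. C8b is the example in which all 8 libraries lay on the CAST side, from 7.14% to 28.1% BDF1.

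In epiblast, the partial biases toward BDF1 were those of Tspan8 (82.4% ± 7.60, n = 6), LOC108168143 with Gm34059 (79.6% ± 5.42, n = 6), Lrriq4 (70.8% ± 5.06, n = 6), 4930591A17Rik (83.6% ± 17.3, n = 6), Pax8 (76.2% ± 8.27, n = 6) and Adgrf4 (87.4% ± 3.08, n = 3). Toward CAST, the BDF1 share was 24.5% ± 10.7 for Tgtp1 (n = 6), 18.9% ± 8.92 for 1700108F19Rik (n = 6), 19.4% ± 15.2 for Gm41072 (n = 5), 18.4% ± 13.4 for Gm34739 (n = 4), 22.4% ± 25.9 for Lyzl4 (n = 4), 15.9% ± 21.2 for Samd7 (n = 3) and 17.4% ± 15.6 for Trim38 (n = 3). In every library with 10 or more reads the called epiblast genes lay on their side of equal shares (24 of 24), and 29 of 34 did so in ExE. The calls came from these same libraries, so the counts are not separate support for them. Equal shares are also not the genome-wide share that the test used. Without embryos 2 and 7, Lrriq4 and Lyzl4 lost their calls (adjusted p = 0.0711 and 0.0661), as Pax8 did without embryo 4 (0.0524).

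**Figure D4:**
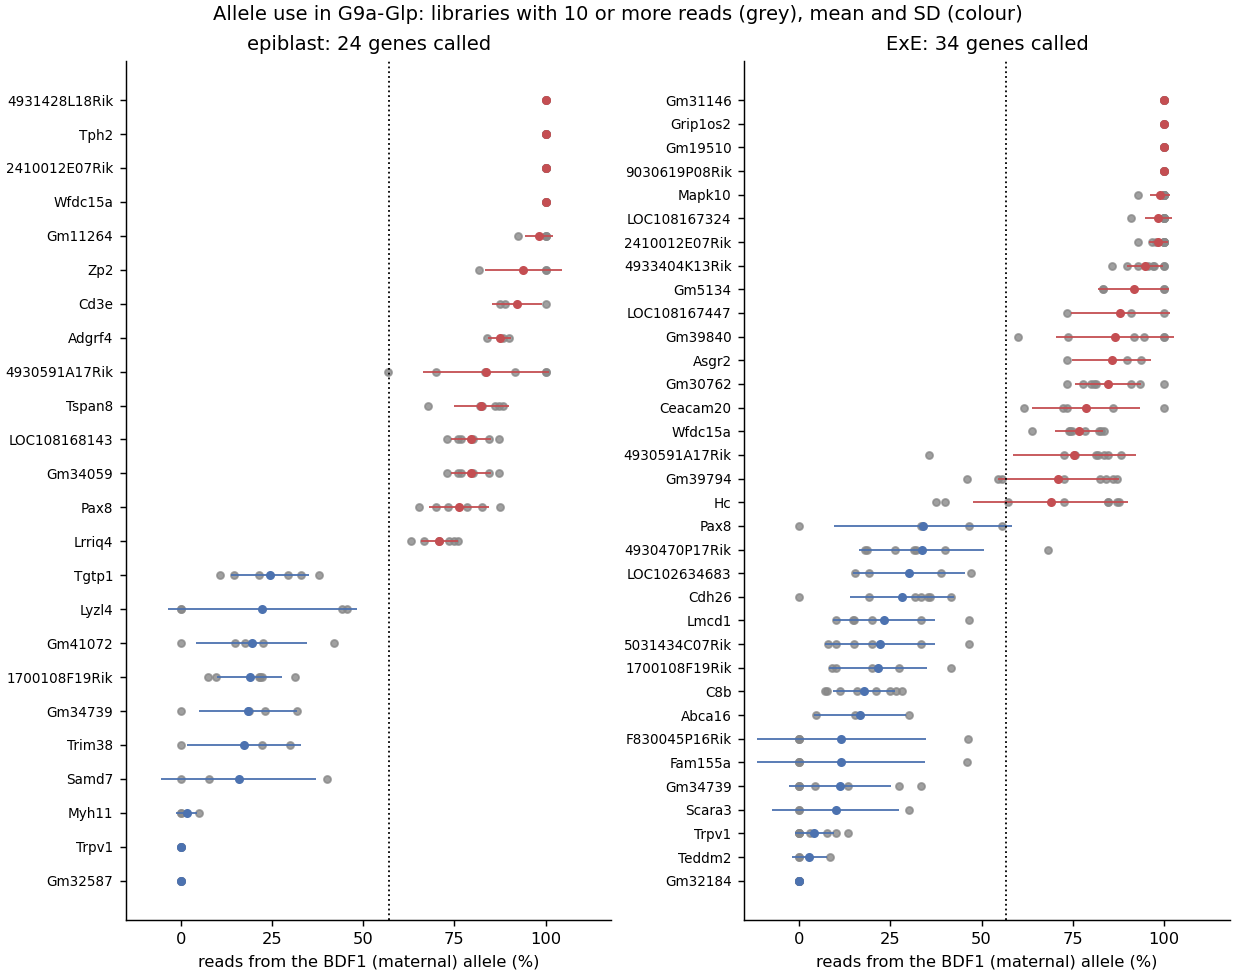
BDF1 share of reads in percent (horizontal axis) for the 24 and 34 picked genes called in G9a-Glp epiblast and ExE (rows); grey points are libraries with 10 or more reads, and the coloured point and bar are their mean and SD (red toward BDF1, blue toward CAST). The dotted line marks the genome-wide share, 57.1% in epiblast and 56.8% in ExE; Tph2 sits at 100% and Gm32184 at 0%.

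Called in both tissues were 7 genes, 6 of them toward the same allele: 2410012E07Rik, 4930591A17Rik and Wfdc15a toward BDF1, and 1700108F19Rik, Gm34739 and Trpv1 toward CAST. Pax8 leaned to opposite alleles. The difference itself was tested for genes with enough reads in both tissues (edgeR, allele by tissue term, 8370 genes, 5.08% called), and 5 of the 22 picked genes tested were called. C8b went from 62.9% ± 15.9 BDF1 in epiblast (SD, n = 6) to 17.8% ± 8.55 in ExE (n = 8; log2 change of the CAST to BDF1 ratio 2.97, adjusted p = 0.000107). Tspan8, a tetraspanin of epithelia, went from 82.4% ± 7.60 (n = 6) to 43.8% ± 19.3 (n = 6; 2.81, 0.000154), and Pax8 from 76.2% ± 8.27 (n = 6) to 33.9% ± 24.4 (n = 4; 2.75, 0.00581). Wfdc15a fell from 100.0% in the 4 epiblast libraries with 10 or more reads to 76.7% ± 6.56 (n = 8; 3.57, 0.00342). Mapk10 alone went the other way, from 64.3% ± 31.7 (n = 4) to 99.0% ± 2.70 BDF1 (n = 7; -5.50, 0.00311), with wide scatter among its epiblast libraries. With the embryo as a block all 5 kept their calls, the weakest being Pax8 (adjusted p = 0.0359).

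**Figure D5:**
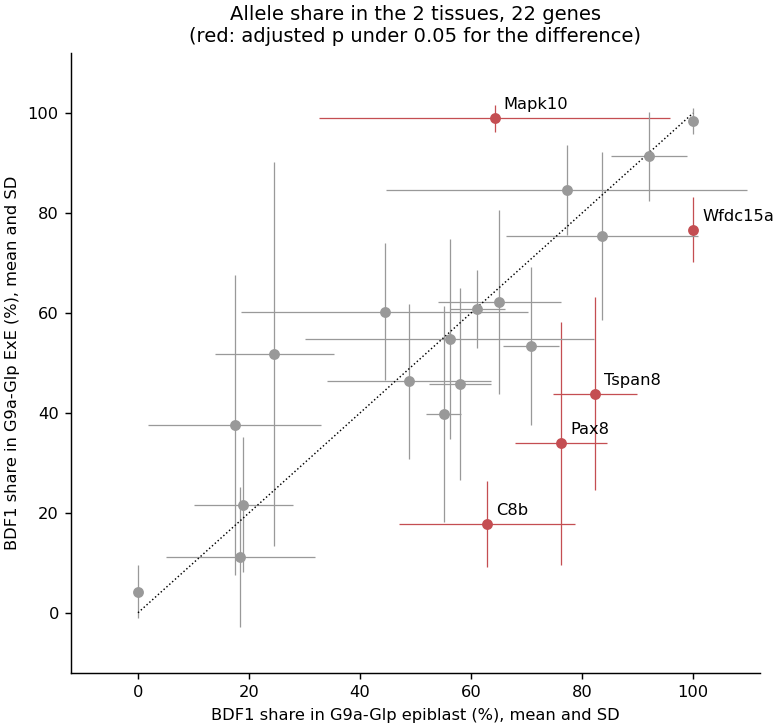
BDF1 share of reads in percent in G9a-Glp epiblast (horizontal axis) and G9a-Glp ExE (vertical axis) for the 22 picked genes tested for a difference; points are means over libraries, bars the SD, the dotted line equal shares, and the 5 genes called are in red. C8b, Tspan8, Pax8 and Wfdc15a have lower BDF1 shares in ExE, and Mapk10 a higher one.

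Sex was not used by the rule. Between female and male G9a-Glp embryos 0 genes were called in either tissue (edgeR, 9486 genes in epiblast with 3 females and 3 males, 9337 in ExE with 5 and 3). At an unadjusted p under 0.05 there were 3 of 37 picked genes (8.11%) beside 440 genes (4.64%) in epiblast, and 4 of 57 (7.02%) beside 400 (4.28%) in ExE. The smallest adjusted p among picked genes was 0.909 in epiblast and 0.996 in ExE. With no filter on low counts, 1 picked gene was called in ExE, 4930470P17Rik (log2 difference 1.57, female over male, adjusted p = 0.0117).

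Gene lists of the pathway were read from the same fits of G9a-Glp against wild-type BDF1xCAST. Over all genes, 19.8% were higher and 15% lower in epiblast, and 8.53% and 6.24% in ExE. Of 55 germline genes in the table, 22 passed the filter in epiblast, with 12 higher and 2 lower (median log2 change 1.34 beside 0.01 over all genes), and 27 in ExE, with 14 higher and 2 lower (median 0.88 beside 0.01). Only Wfdc15a was both on the list and picked. The largest changes were those of Asz1, of the piRNA pathway (5.75 in epiblast, 6.28 in ExE), Sohlh2, a germ-cell transcription factor (4.12 and 4.78), the testis ribosomal protein gene Rpl10l (5.28 in epiblast) and Wfdc15a (7.78 in ExE). Asz1 rose from a median of 2.63 to 225 CPM in ExE, Sohlh2 from 10.4 to 429.8 CPM. Of the 25 genes of H3K9 methylation machinery, 4 of 20 tested were lower and 0 higher in epiblast. They were led by Kdm3a (-1.01), Cbx1 (-0.96) and Setdb1 (-0.67), of which Kdm3a encodes a demethylase and so removes the mark. In ExE 4 of 21 were lower and 0 higher, led by Ehmt2, Ehmt1 and Trim28 (-0.80). The epiblast share, 4 of 20, is near that of all genes. Of 14 genes of the PRC1.6 complex, which represses germline genes, 2 of 12 were higher and 3 lower in epiblast (Max 2.10, E2f6 -1.07, Mga -1.04), and 1 of 13 higher in ExE (Yaf2 0.71), with shares of higher genes near those of all genes. Of 19 genes of the 2-cell stage, 1 was tested in each tissue and 0 were called.

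Some genes lay close to the limits of the rule. In epiblast, LOC102633000 (2.04 CPM) and Gm20655 (2.08) were just inside the G9a-Glp limit, and Gbp4 (1.99), Vps33b (1.99) and Cd3d (1.98), a partner of Cd3e, just outside. At the wild-type limit, Gm39840, Wfdc15a and Cytl1 (0.419 CPM) were inside and Adam12, Gm12056 and Gm41072 (0.660) outside, and at the limit of the other knockouts Mybpc2 (1.00 CPM) was inside and Gm35721 (1.01) outside. In ExE, LOC666331 (2.03), Mmp1b (2.13) and Cd3e (2.16) were just inside and Ttc29 (1.98), Enthd1 (1.98) and Dpp4 (1.95) just outside. The wild-type limit left LOC666331 and Serpind1 (0.372) inside and Ssu2, Gm30494 (0.655) and Lhfpl5 (0.658) outside. The limit of the other knockouts left Gm19510 (0.939) inside and Cryga, Crtam and Gm39383 (1.02) outside.

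The 107 genes are given here with their positions on mm10, counted from 1, as the bodies in the deposited table, and with their RefSeq class. Chromosome 1 held the coding genes 1700019A02Rik (chr1:53158573-53188650), Inpp5d (chr1:87620312-87720510), Iqca (chr1:90042132-90153401), Teddm2 (chr1:153849542-153851195) and Aim2 (chr1:173349246-173466040), with the lncRNA genes 4931428L18Rik (chr1:31141078-31222656), Gm28321 (chr1:50812475-50817701) and Gm33470 (chr1:87699779-87724892). Chromosome 2 held the coding genes Pax8 (chr2:24420551-24480095), Hc (chr2:34983329-35067034), F830045P16Rik (chr2:129457797-129536602), Wisp2 (chr2:163820752-163833146), Wfdc15a (chr2:164198872-164200117), Cdh26 (chr2:178430515-178487366) and 4930591A17Rik (chr2:179414936-179416880), with the lncRNA genes Gm39794 (chr2:35063521-35068478), 1700019E08Rik (chr2:45696605-45698447), Gm34739 (chr2:65401809-65415355), Gm39840 (chr2:69121470-69130178), Gm31146 (chr2:114421421-114430323), Ptprtos (chr2:162390813-162393946), Gm14637 (chr2:170576043-170579507) and 4930470P17Rik (chr2:170579418-170602017). Chromosome 3 held the coding genes Lrriq4 (chr3:30644506-30672434), Lrrc31 (chr3:30678554-30699843) and Samd7 (chr3:30746293-30767174), with the lncRNA genes LOC108168861 (chr3:30685937-30693006) and Gm40140 (chr3:122662220-122684080). Chromosome 4 held the coding gene C8b (chr4:104766317-104804548), with the lncRNA genes Gm11264 (chr4:82033312-82065890), LOC102634683 (chr4:137882037-137883926) and Gm33214 (chr4:139003191-139019566). Chromosome 5 held the coding genes Cytl1 (chr5:37735519-37739820), Mapk10 (chr5:102908547-103211430) and Gna12 (chr5:140759944-140830431), with the lncRNA genes Gm34598 (chr5:77146097-77159173) and Gm30866 (chr5:141124859-141158981). Chromosome 6 held the coding genes Cftr (chr6:18170262-18322774) and Lmcd1 (chr6:112273758-112330423), with the lncRNA genes 9430018G01Rik (chr6:43442429-43474318), Gm31631 (chr6:50900455-50908977), Gm16499 (chr6:53844899-53858947) and 5031434C07Rik (chr6:112286794-112290319). Chromosome 7 held the coding genes Ceacam20 (chr7:19965352-19991113), Mybpc2 (chr7:44501699-44524722), Zp2 (chr7:120126772-120145414) and Abca16 (chr7:120409647-120544892), with the lncRNA genes Zim2 (chr7:6651748-6662368), LOC108167447 (chr7:98366993-98419801), Gm39103 (chr7:134020400-134039439) and LOC108167464 (chr7:137630516-137654033). Chromosome 8 held the coding genes Fam155a (chr8:9205972-9773322) and Ces1a (chr8:93020214-93048192), with the lncRNA genes Gm6329 (chr8:45160494-45165145), Gm39209 (chr8:80512544-80526165) and Gm39253 (chr8:112293848-112297155), with the gene without a RefSeq match Gm39132 (chr8:11874296-11896690). Chromosome 9 held the coding genes Mmp1b (chr9:7367670-7388026), Cd3e (chr9:44998735-45009664), 1700057G04Rik (chr9:92309326-92357876), Rtp3 (chr9:110984938-110990583) and Lyzl4 (chr9:121577841-121641566), with the lncRNA genes Gm32768 (chr9:58464357-58473615) and Gm30762 (chr9:115347699-115370698). Chromosome 10 held the coding genes Gm5134 (chr10:75954381-76009591), Ptprq (chr10:107514356-107720078), Tph2 (chr10:115078641-115185022) and Tspan8 (chr10:115816817-115849893), with the lncRNA genes Gm20655 (chr10:17782891-17796257), F830002L21Rik (chr10:43593427-43630914), 4933404K13Rik (chr10:43825907-43833301), Gm36229 (chr10:53409882-53424901), Gm36177 (chr10:107495268-107659403) and Grip1os2 (chr10:119746062-119761699), with the transcribed pseudogene Gm5779 (chr10:75352055-75352961). Chromosome 11 held the coding genes Atp10b (chr11:43012183-43262285), Tgtp1 (chr11:48985329-48992246), Asgr2 (chr11:70092644-70106187), Trpv1 (chr11:73234149-73261322) and LOC666331 (chr11:101610700-101616638). Chromosome 12 held the coding genes Wdr20rt (chr12:65225517-65228454) and Tex21 (chr12:76198687-76246758). Chromosome 13 held the coding genes Trim38 (chr13:23778500-23791731), Acot12 (chr13:91741505-91786148) and 4933425L06Rik (chr13:105082122-105121782), with the lncRNA genes Gm32184 (chr13:41513893-41605820), LOC108167324 (chr13:99110537-99122458) and Gm41072 (chr13:114208989-114218138). Chromosome 14 held the coding gene Scara3 (chr14:65919394-65953930), with the lncRNA genes Gm32587 (chr14:18463610-18555034), LOC108168143 (chr14:26312495-26337327), Gm34059 (chr14:26315188-26324676), 2410012E07Rik (chr14:70852933-70873954) and 1700108F19Rik (chr14:76677568-76687108). Chromosome 15 held the coding gene Gtsf1 (chr15:103402458-103430446), with the lncRNA genes Gm33301 (chr15:40162603-40168076), Gm19510 (chr15:59788417-59794959) and Gm32733 (chr15:97102525-97107514), with the transcribed pseudogene 9030619P08Rik (chr15:75427606-75431829). Chromosome 16 held the coding genes Myh11 (chr16:14194527-14291408), Serpind1 (chr16:17331339-17343574) and Fam3b (chr16:97471086-97504936), with the lncRNA gene LOC102633000 (chr16:93793238-93795206). Chromosome 17 held the coding genes Adgrf4 (chr17:42656887-42697569) and Tmem63b (chr17:45660172-45686254). Chromosome 19 held the coding gene Ina (chr19:47014698-47024358), with the lncRNA gene Gm34808 (chr19:26482315-26509084).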

How the data were processed

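RNA of epiblast and ExE was measured in 72 libraries of single E6.5 embryos. Per the file headers, the authors deposited for each gene and library a count of reads over polymorphisms that separate BDF1 from CAST, an allelic ratio (other values: the CAST share minus 0.5) and an allelic score, a signed -log10 binomial p-value. STAR 2.5.0, HTSeq and mm10 are named in the submitters' processing notes with no role given; the set of polymorphisms, strand use and further settings are not given in the sources used here. A bisulfite sample of G9a-Glp ExE was not analysed here. Library totals over polymorphisms, 1141414 to 17653087 reads, set the precision: 1 read was worth 0.0566 to 0.876 CPM. Starts in the table count from 0 and were raised by 1.

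CPM was the count over the column sum of all genes. Such levels are not per length and are not compared between genes as amounts of RNA. The picked genes and the lists were chosen with earlier results of these data known. Allele reads were recovered as the whole CAST number that fits ratio and score, which matched within 0.01 score units for 131311 of 131781 values of 10 or more reads (463 more were at the score's limit, where the ratio set the number). Tests used edgeR 4.0.16 (quasi-likelihood, two-sided, Benjamini-Hochberg over all autosomal genes tested, threshold 0.05) in R 4.3.3, after TMM and filterByExpr for total reads, with only the groups compared. Allele tests used 1 column per library and allele, a term for each library and the autosomal reads of the allele as library size. Folds of genes without a wild-type read were set against 3 reads over the group. Classes and promoters came from RefSeq tables by symbol (Python 3.11.15, pandas 2.3.3). On simulated counts, 90% to 100% of 4-fold changes and 12% to 75% of 2-fold changes were recovered, the lowest in the test of sex. For total reads, the changed genes were drawn only from filtered genes above a floor on mean CPM, with the same dispersion for all. Against the wild type, only 4 of the 49 epiblast genes and 18 of the 69 ExE genes passed that filter. The rates for total reads therefore do not describe most picked genes. For alleles, the changed genes were drawn from all genes tested, with the same scatter between libraries set for all. The allele rates therefore need not hold for picked genes whose shares scattered widely.

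Every picked gene is named once with its position; values are given for genes of both tissues, the 8 highest of each tissue and genes called in a test; other genes named are the targets, the 3 largest changes per list, up to 3 genes outside each limit and the 5 neighbours with the largest change. Examples with known roles, and the 4 neighbours of Mybpc2, were chosen after their values were seen. Alternatives covered thresholds, means, scaling, filters, DESeq2 1.42.0, limma 3.58.1, single libraries left out and blocks. Same-numbered epiblast and ExE libraries come from the same embryo per the labels, which pairs 5 embryos; their deviations correlated between -0.0839 and 0.305. Wild-type and G9a-Glp embryos share only a number.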

Additional observations from a re-analysis of the deposited data

Results flagged for a closer look

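Of 43 groups of values checked for a library far from the others, 2 held one, and chance alone marks about 1 group in 20. Wild-type BDF1xCAST epiblast embryo 8 had 21 of the 49 epiblast genes at 2 CPM or more, while the other 6 libraries of its group had 0 to 2. Its total of 1311863 reads was the lowest of its group, and its summed visceral endoderm and mesoderm markers were at 1093 and 628 CPM. The part of depth or of other cells in that number was not tested. Grip1os2 was at 0.0 CPM in G9a-Glp epiblast embryo 7 and had reads in the other 5 libraries.

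The allele used differed between epiblast and ExE of G9a-Glp embryos for 5 genes, by the test of the difference itself. The log2 change of the CAST to BDF1 ratio from epiblast to ExE was 2.75 for Pax8, 3.57 for Wfdc15a, 2.97 for C8b, 2.81 for Tspan8 and -5.50 for Mapk10. Their total reads did not move as one: within G9a-Glp, C8b (log2 difference 1.27) and Wfdc15a (3.97) were higher in ExE, Tspan8 (-2.35) and Pax8 (-1.27) lower, and a difference of Mapk10 (0.40) was not detected (edgeR quasi-likelihood test).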

How the results depend on the processing

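The number of genes the rule picked depends on its limits. In epiblast (49) it was 27 with group means in place of medians (20 of them among the 49), 15 with 4 CPM as the G9a-Glp limit and 23 with 0.5 CPM for the other knockouts; in ExE (69) the last 2 gave 23 and 43. Leaving out 1 library gave 45 to 53, 43 to 49, 41 to 42, 49 to 55 and 47 to 51 genes in epiblast for G9a-Glp, wild type, Dnmt1, Rnf2 and Eed, and 72 to 82, 63 to 69, 66 to 69, 67 to 70 and 66 to 71 in ExE. Genes changed in G9a-Glp against the wild type numbered 3220 in epiblast and 1319 in ExE, 2131 in ExE with all BDF1xCAST groups in 1 fit, and 3812 and 1052 without wild-type embryo 8, an alternative chosen after seeing the data, as was leaving out embryos 2 and 7. The rule picked most genes on G9a-Glp levels in 1 tissue only, so nothing is read from how many of them differ between tissues. With the filter on low counts, 26.4% of all genes were called higher in ExE and 27.8% lower. Picked genes called between tissues rose from 28 to 70 with no such filter. With at least 20 reads in place of 10, those called for allele numbered 10 in epiblast (24) and 16 in ExE (34), and for allele by tissue 2 (5), since fewer genes are tested. Leaving out 1 library gave 17 to 22 and 27 to 34, and 2842 to 2981 and 3606 to 3750 genes in all. For sex, no filter gave 22 genes in epiblast and 66 in ExE, with 1 picked gene, and leaving out 1 library gave 0 to 2 and 0 to 10 genes and 0 picked genes.

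With the replicate number as a block, 3091 and 1442 genes were called against the wild type, where it is only a number. Where it pairs the tissues of an embryo, 4229 genes were called between tissues, 23 of them picked, and 348 for allele by tissue, 5 of them picked. The 23 again depend on the rule and are not read as a result. Gm39840 (log2 1.43, adjusted p = 0.0759) lost its call under the block.

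For single picked genes, 357 calls stayed on their side of the threshold and 14 were lost with 1 library left out, 176 stayed and 10 were lost under other settings, and 0 reversed. Those lost on leaving out 1 library were Hc, Ceacam20, Gm39794 and Pax8. Under limma 4930591A17Rik, Cd3e, Ceacam20, Gm39794 and Hc lost theirs, with equal reads as no bias Trim38 and Pax8, and without embryos 2 and 7 Lrriq4 and Lyzl4; the cause was not tested.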
